A study of Mus musculus with 6 samples.

Results

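Endothelial cells line the vessels of the heart, and 41 genes that mark these cells or serve their functions were followed in RNA that was co-precipitated from mouse left ventricle. The genes were taken as a list of gene symbols, whose rule uses no measured value, although the list was drawn up with earlier results of these data known. All 41 symbols were found among the 46072 genes of the deposited tables, and 34 of them had the position given by GENCODE M21 (GRCm38, the same assembly as mm10). A mean of at least 1 FPKM (fragment counts divided by transcript length in kilobases and by the depth of the library) over the 6 libraries was reached by 32 of them, of 8637 genes in all. The other 9, Apln, Angpt2, Cldn5, Dll4, Ednrb, Esm1, Hey1, Nos3 and Plvap, stayed below this level and entered no count.

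Endothelial cells are held together by VE-cadherin and PECAM1, and they read the VEGF, angiopoietin, apelin, adrenomedullin and Notch signals that set vessel growth, tip cell choice and permeability. ETS and SOXF transcription factors keep up endothelial gene expression. In the heart, capillary endothelium also takes up fatty acids for the muscle, through GPIHBP1, FABP4 and the transcription factor TCF15. EZH2 is the methyltransferase of polycomb repressive complex 2 and binds many RNAs.

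RIP-seq, the sequencing of RNA that an antibody pulls down with its target protein, was carried out on whole left ventricle of male mice aged 10 weeks. The 3 groups of 2 mice each were Sham, AngII 4 h and AngII 24 h. AngII was infused at 1 mg/kg/min from an osmotic minipump for 4 or 24 h. The methods give saline to the Sham mice, and the labels say Untreated. The labels give the strain as C57BL/6 for 4 libraries, C57BL/7 for the anti-EZH2 library of AngII 4 h and C57BL/8 for that of AngII 24 h. The last digit runs on from that of C57BL/6, as in a filled-down column, so that these strain names are in doubt and the libraries were not treated as different strains. RNA was pulled down from lysates with anti-EZH2 or, as the control, normal IgG, and each library pooled 2 such pull-downs. Each group and antibody therefore had 1 library, AngII comparisons have no replicate check, and differences between them are given without a test. As each group had 2 mice by the methods, both libraries of a group were taken to come from the same mice, so that they repeat the precipitation and not the animals. Endothelial cells were not sorted, and in such bulk tissue fewer endothelial cells and less RNA per endothelial cell cannot be told apart. All 6 libraries hold precipitated RNA, so that a difference in what was pulled down cannot be told apart from these either.

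About 3802281 to 7968127 fragments per library were inferred from the step that 1 read gives in the FPKM of low genes, where 58.4% to 62.7% of low values were whole to within 0.1 reads. Mitochondrial genes held 6.72% to 13.9% of the FPKM of 5 libraries and 31.3% in the anti-EZH2 library of AngII 24 h, which stood apart. The summed FPKM of the 41 genes was 272, 268 and 269 with IgG and 229, 271 and 153 with anti-EZH2, each time in the order Sham, AngII 4 h and AngII 24 h. As a share of all FPKM of a library, scaled to a total of 1000000, these sums were 125, 134 and 128 with IgG and 118, 158 and 143 with anti-EZH2. The library of AngII 24 h with anti-EZH2 was thus lowest of the 6 in FPKM, but not as a share, where only AngII 4 h with anti-EZH2 was above it. Its part in the differences between groups and antibodies was not tested.

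Defining markers were measured in all libraries. Pecam1 (chromosome 11, 106654217 to 106750628), which encodes the adhesion molecule CD31, had 8.85, 8.49 and 8.44 FPKM with IgG and 7.07, 10.9 and 4.32 FPKM with anti-EZH2, in that order, which is kept throughout. Of all members, 39 to 41 were above 0 in a library and 25 to 33 were above 1 FPKM. Esm1, a product of tip cells, was listed at 0 in 4 libraries and reached 0.198 FPKM at most. Angpt2, the TIE2 ligand that activated endothelium releases, reached 0.0688 FPKM at most.

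Levels per length differed widely within each role. Among genes of capillary function, Fabp4, a fatty acid binding protein, had the highest mean of all members (58.8 FPKM, 93.7th percentile of the genes tested), followed by the caveolin Cav1 (24.9 FPKM), Gpihbp1, which carries lipoprotein lipase across the capillary wall (13.5 FPKM), and the water channel Aqp1 (13.4 FPKM). Ly6c1 (21.2 FPKM) and Ly6a (11.5 FPKM) (both on chromosome 15), nearby surface antigen genes of a family of close copies, led the junction and surface genes. Fabp4 is also a gene of adipocytes, and of 5 adipocyte markers Plin1 and Lep were at 0 in all libraries, with a sum over all 5 of 0 to 0.754 FPKM.

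Receptors were measured at lower levels. Eng, an endothelial co-receptor for TGF-beta and BMP ligands, had the highest mean (7.82 FPKM), then Ramp2, which pairs with CALCRL as the adrenomedullin receptor (7.01 FPKM), and the VEGF receptor Flt1 (4.34 FPKM). Means of the other receptors that passed the filter were 1.85 FPKM (Notch1) to 3.90 FPKM (Notch4). Egfl7, a secreted matrix protein (11.4 FPKM), and Vwf, the von Willebrand factor (4.26 FPKM), were the only ligands or secreted products above a mean of 1 FPKM. The Notch ligand Dll4 had a mean of 0.815 FPKM, with 0.941, 0.590 and 1.60 FPKM with IgG and 1.04, 0.424 and 0.295 FPKM with anti-EZH2. Transcription factors had means between 0.578 FPKM (Hey1) and 2.81 FPKM (Sox18). The plot of all members by library shows these ranges.

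**Figure D1:**
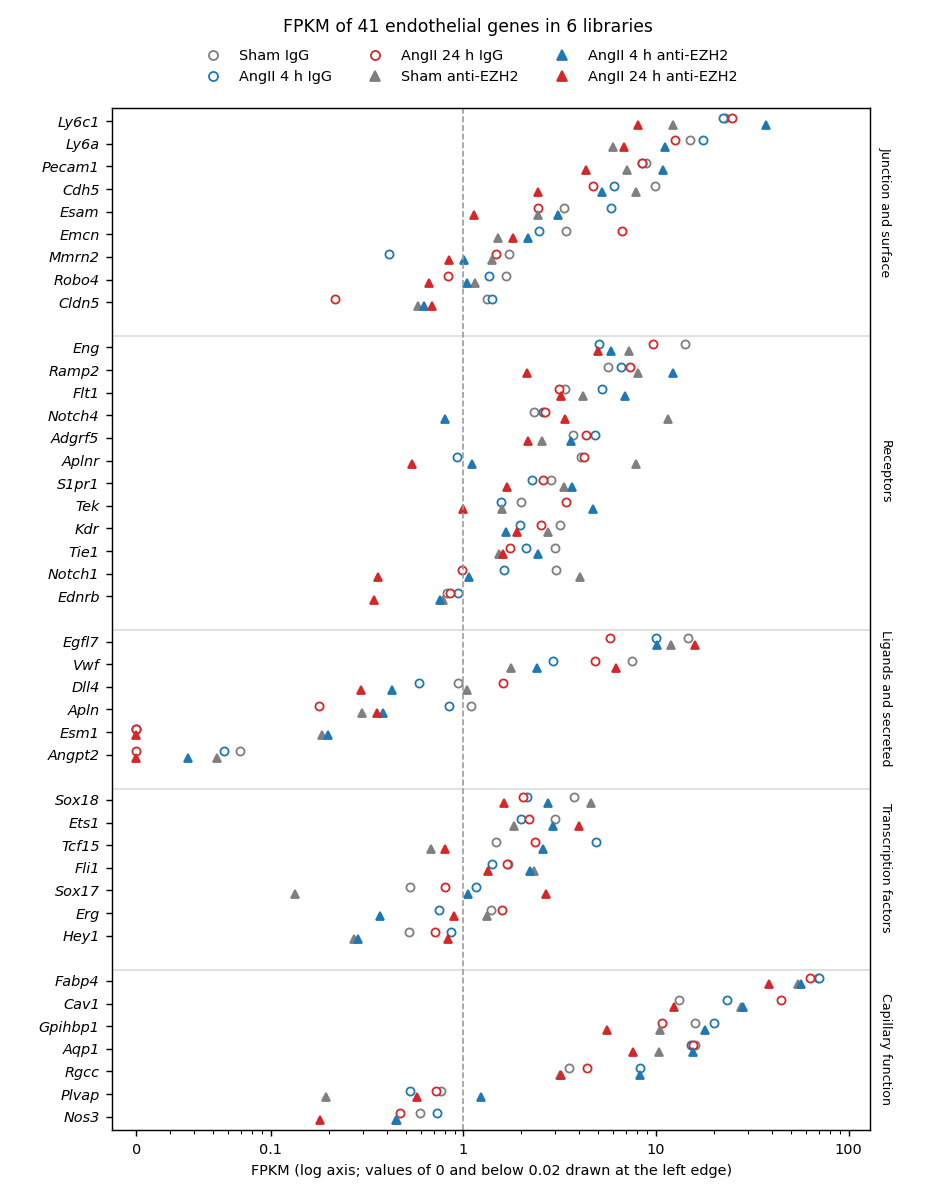
FPKM (horizontal, log axis) of the 41 endothelial genes, ordered by role and mean, with 1 point per library (circles, IgG; triangles, anti-EZH2; grey, Sham; blue, AngII 4 h; red, AngII 24 h) and a dashed line at 1 FPKM. Fabp4 lies between 38.4 and 70.6 FPKM, and the red triangle of AngII 24 h with anti-EZH2 is the lowest point of many genes.

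The first comparison asked how endothelial transcripts differed from Sham after 4 h of AngII. Rgcc, Tcf15 and Sox17 were past 2-fold higher and Aplnr was past 2-fold lower in the libraries of both antibodies. These were 3 of 32 members higher and 1 lower, beside 4.98% and 2.79% of all 8637 genes. The ratio was log2 of (FPKM + 0.1) over (FPKM + 0.1), which understates the change of low genes.

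Rgcc (chromosome 14, 79288756 to 79301645, minus strand), a cell cycle regulator with high expression in capillary endothelium, had 3.55, 8.24 and 4.39 FPKM with IgG and 3.19, 8.22 and 3.21 FPKM with anti-EZH2. Both libraries of AngII 4 h were therefore higher than the other 4. The log2 ratio of AngII 4 h to Sham was 1.19 with IgG and 1.34 with anti-EZH2, and at 24 h it was 0.30 and 0.01. Rgcc has 1 annotated transcript, so that its reads could be inferred as 11, 31 and 12 with IgG and 13, 47 and 11 with anti-EZH2. Per fragment, the ratio of AngII 4 h to Sham was 2.32 (exact 95% interval 1.13 to 5.11) with IgG and 2.58 (1.37 to 5.19) with anti-EZH2. Such intervals cover counting error only. In the series table, whose FPKM differ from those of the separate tables, Rgcc had 1.19, 2.30 and 2.20 FPKM with IgG and 1.53, 2.77 and 2.72 FPKM with anti-EZH2. There the ratio at 4 h stayed above 0 but was under 2-fold (0.90 and 0.81), and the ratio at 24 h was nearly as high (0.84 and 0.79).

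Tcf15 (chromosome 2, 152143561 to 152149097), the transcription factor of fatty acid uptake in heart endothelium, had 1.48, 4.89 and 2.36 FPKM with IgG and 0.676, 2.58 and 0.806 FPKM with anti-EZH2. These values came from 5, 20 and 7 reads and from 3, 16 and 3 reads. The library of AngII 4 h was highest with either antibody, and every anti-EZH2 library was below the IgG library of its group. Per fragment, the ratio of AngII 4 h to Sham was 3.29 (1.20 to 11.2) with IgG and 3.80 (1.09 to 20.4) with anti-EZH2. In the series table Tcf15 had 0.276, 0.823 and 2.09 FPKM with IgG and 0.196, 0.545 and 1.21 FPKM with anti-EZH2, so that AngII 24 h was highest there, and its mean fell short of the filter.

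Sox17 (chromosome 1, 4490931 to 4497354, minus strand), a SOXF factor of arterial endothelium, had 0.529, 1.16 and 0.800 FPKM with IgG and 0.134, 1.05 and 2.67 FPKM with anti-EZH2. Its ratio at 4 h was 1.00 with IgG, at the limit itself, and 2.30 with anti-EZH2. Each FPKM was deposited with an interval, whose level is not given in the sources used here. That of Sham overlapped that of AngII 4 h with either antibody, and with a pseudocount of 1 neither ratio was past 2-fold (0.50 and 0.86). The series table gave 0.128, 0.249 and 1.10 FPKM with IgG and 0.0475, 0.372 and 5.80 FPKM with anti-EZH2, so that the ratio at 4 h was under 2-fold with IgG (0.62) and 1.68 with anti-EZH2, and AngII 24 h was highest with either antibody (2.40 and 5.32).

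Aplnr (chromosome 2, 85136225 to 85139923), the apelin receptor, had 4.07, 0.925 and 4.24 FPKM with IgG and 7.84, 1.11 and 0.538 FPKM with anti-EZH2. The ratio at 4 h was -2.03 and -2.72. At 24 h the antibodies parted, with 0.06 and -3.64. Deposited intervals were wide, for example 1.20 to 14.6 FPKM in Sham with anti-EZH2, and overlapped at 4 h with either antibody. The series table gave the same directions at 4 h (-2.26 and -3.13). Apln, which encodes the ligand of this receptor, was under the filter with 14, 13 and 2 reads with IgG and 5, 9 and 5 reads with anti-EZH2. Per fragment its ratio of AngII 24 h to Sham was 0.162 (0.0179 to 0.707) with IgG and 1.19 (0.274 to 5.17) with anti-EZH2.

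The VEGF receptors moved apart at 4 h, though under 2-fold, a pair that was picked after its values were seen. Flt1 (chromosome 5, 147561604 to 147726011, minus strand), a receptor that binds VEGFA tightly and signals weakly, had 3.37, 5.27 and 3.13 FPKM with IgG and 4.16, 6.87 and 3.21 FPKM with anti-EZH2. Kdr (chromosome 5, 75932827 to 75978458, minus strand), the main signalling receptor for VEGFA, had 3.19, 1.96 and 2.52 FPKM with IgG and 2.76, 1.66 and 1.90 FPKM with anti-EZH2. The ratio at 4 h was 0.63 and 0.71 for Flt1 and -0.68 and -0.70 for Kdr. For Kdr, AngII 4 h was lowest with either antibody, and the deposited intervals of AngII 4 h and Sham were apart with anti-EZH2 (1.26 to 2.08 against 2.13 to 3.40 FPKM). In the series table Kdr was past 2-fold lower at 4 h in both antibodies, with 1.61 and 0.712 FPKM in Sham and AngII 4 h with IgG and 1.58 and 0.701 FPKM with anti-EZH2. Flt1 was nearer to Sham there, with 1.43 and 1.72 FPKM in Sham and AngII 4 h with IgG (0.25) and 2.27 and 2.51 FPKM with anti-EZH2 (0.14). Vegfa, the ligand, had 17.6, 12.2 and 8.22 FPKM with IgG and 10.8, 7.50 and 12.6 FPKM with anti-EZH2.

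**Figure D2:**
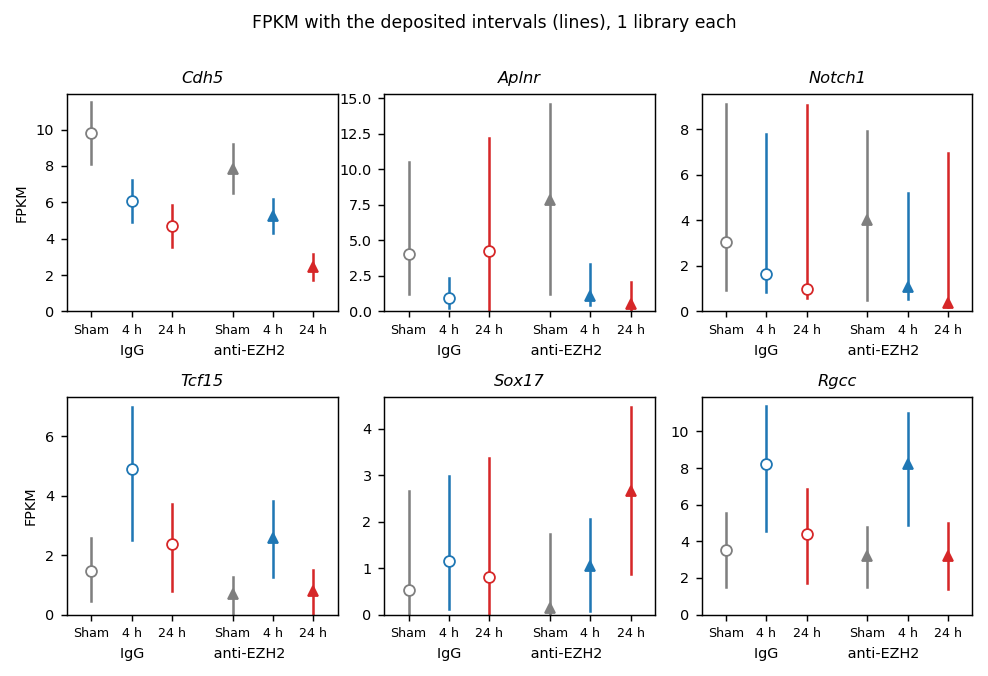
FPKM (vertical, linear axis from 0) of the 6 members past 2-fold from Sham in both antibodies at 4 or 24 h, with 1 point per library and the interval deposited for it as a line. The intervals of Sham and AngII 24 h are apart in both antibodies for Cdh5, and those of Aplnr, Notch1 and Sox17 are wide.

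Over all members at 4 h, 3 were past 2-fold higher (9.38%) and 4 lower (12.5%) with IgG, beside 17.9% and 11.5% of all genes. With anti-EZH2, 5 were higher (15.6%) and 4 lower (12.5%), beside 21.1% and 10.5% of all genes. Median log2 ratios were -0.26 with IgG, where that of all genes was 0.18, and 0.38 with anti-EZH2, where that of all genes was 0.34. With the median of all genes subtracted, 2 were higher and 5 lower with IgG and 4 and 6 with anti-EZH2. By the series table, where 27 members passed the filter and Tcf15 did not, the counts were 0 higher and 5 lower with IgG, and 1 and 6 with anti-EZH2. The share of all genes was not calculated with the median subtracted or by the series table. Such counts, here and below, therefore have no background beside them.

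Members past 2-fold that also had deposited intervals apart at 4 h were 2 with IgG, beside 3.09% of all genes, and 3 with anti-EZH2, beside 6.06%. With IgG these were Eng (14.1 to 5.05 FPKM, -1.46) and Mmrn2, which encodes a matrix protein of endothelium (1.73 to 0.408 FPKM, -1.85). With anti-EZH2 these were Rgcc, Tcf15 and Ly6c1. Ly6c1 had 22.8, 22.3 and 24.8 FPKM with IgG and 12.3, 37.1 and 8.10 FPKM with anti-EZH2, so that its higher value at 4 h (1.58) was seen in the anti-EZH2 libraries, and the IgG ratio was -0.03. In the series table its ratio at 4 h was under 2-fold with anti-EZH2 (0.84) and was -0.60 with IgG. Other members past 2-fold with 1 antibody at 4 h were Vwf with IgG (-1.34) and Tek (1.51), Notch4 (-3.70), Notch1 (-1.82) and Erg (-1.61) with anti-EZH2.

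At 24 h of AngII, Cdh5 and Notch1 were past 2-fold lower than Sham in both antibodies and no member was past 2-fold higher. These were 2 and 0 of 32 members, beside 3.70% of all genes lower and 3.59% higher in both antibodies.

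Cdh5 (chromosome 8, 104101625 to 104144511), which encodes VE-cadherin of the endothelial adherens junction, had 9.83, 6.08 and 4.71 FPKM with IgG and 7.83, 5.26 and 2.43 FPKM with anti-EZH2. Sham was highest and AngII 24 h lowest with either antibody. The log2 ratio to Sham was -0.68 at 4 h and -1.05 at 24 h with IgG, and -0.56 and -1.65 with anti-EZH2. Deposited intervals were apart from those of Sham in all 4 comparisons. For IgG they were 8.11 to 11.5 FPKM in Sham, 4.92 to 7.21 FPKM at 4 h and 3.55 to 5.85 FPKM at 24 h. For anti-EZH2 they were 6.51 to 9.19, 4.34 to 6.19 and 1.73 to 3.15 FPKM. In the series table Cdh5 was also below Sham in all 4 comparisons, with 4.47, 2.05 and 2.85 FPKM and 4.41, 2.14 and 2.45 FPKM, but there AngII 4 h was lowest, past 2-fold at 4 h (-1.08 and -1.01) and under 2-fold at 24 h (-0.63 and -0.83). With a pseudocount of 1 the IgG ratio at 24 h was -0.92.

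Notch1 (chromosome 2, 26457903 to 26516663, minus strand), a receptor of the signal between tip and stalk cells, had 3.03, 1.63 and 0.987 FPKM with IgG and 4.03, 1.07 and 0.360 FPKM with anti-EZH2. Its order over the groups was that of Cdh5, and its ratio at 24 h was -1.53 and -3.17. Deposited intervals were wide, 0.955 to 9.13 FPKM in Sham with IgG, and overlapped in every comparison with Sham. The series table gave 1.24, 0.664 and 0.650 FPKM with IgG and 2.59, 0.404 and 0.396 FPKM with anti-EZH2, with Sham highest as well, at a mean under the filter.

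Sox18, another SOXF factor with 1 annotated transcript, had 3.75, 2.15 and 2.03 FPKM with IgG and 4.58, 2.74 and 1.62 FPKM with anti-EZH2. Its values came from 23, 16 and 11 reads and from 37, 31 and 11 reads. Sham was highest with either antibody, and the ratio per fragment of AngII 24 h to Sham was 0.543 (0.239 to 1.16) with IgG and 0.354 (0.163 to 0.708) with anti-EZH2. The series table turned the direction at 24 h, with 1.15 and 1.67 FPKM in Sham and AngII 24 h with IgG and 2.03 and 2.21 FPKM with anti-EZH2.

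Promoters are shown for the singled out members that had an entry in the promoter table, to set the sequence beside the values. Each line holds the 250 bases before the transcription start, 5′ to 3′ on the minus strand, from RefSeq (GRCm38.p6), at chr14:79301636-79301885 for Rgcc, chr2:26503823-26504072 for Notch1, chr5:75978456-75978705 for Kdr and chr5:147726012-147726261 for Flt1. Capitals mark matches to an ETS core (AGGAAG) or an RBPJ motif (TGGGAA) on either strand, and the AP-1 motif TGANTCA had no match in these windows.
Rgcc: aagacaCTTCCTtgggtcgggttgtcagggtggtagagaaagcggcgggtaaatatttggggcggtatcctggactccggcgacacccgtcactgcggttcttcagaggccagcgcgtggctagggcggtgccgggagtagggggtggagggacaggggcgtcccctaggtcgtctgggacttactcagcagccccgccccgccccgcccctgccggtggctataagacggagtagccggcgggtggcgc
Notch1: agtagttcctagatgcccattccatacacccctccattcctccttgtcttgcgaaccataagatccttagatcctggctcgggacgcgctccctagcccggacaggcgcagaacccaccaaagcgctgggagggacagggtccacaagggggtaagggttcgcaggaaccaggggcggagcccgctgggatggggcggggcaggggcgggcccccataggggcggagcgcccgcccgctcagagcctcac
Kdr: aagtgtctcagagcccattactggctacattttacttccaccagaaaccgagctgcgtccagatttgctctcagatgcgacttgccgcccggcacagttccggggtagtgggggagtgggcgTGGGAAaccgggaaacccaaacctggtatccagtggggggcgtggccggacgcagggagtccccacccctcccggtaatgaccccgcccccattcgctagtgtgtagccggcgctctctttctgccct
Flt1: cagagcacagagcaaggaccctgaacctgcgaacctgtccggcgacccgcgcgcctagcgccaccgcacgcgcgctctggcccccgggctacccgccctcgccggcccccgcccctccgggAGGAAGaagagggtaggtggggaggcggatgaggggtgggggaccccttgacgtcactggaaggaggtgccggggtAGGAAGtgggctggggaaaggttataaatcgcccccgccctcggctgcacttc

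The Rgcc window held AGGAAG 1 time, that of Flt1 held it 2 times, that of Kdr held TGGGAA 1 time, and that of Notch1 matched none of the 3 forms. The table had 28 promoters of 21 members. AGGAAG was found in 14 of these, beside 29.5% of 32851 promoters of all genes, TGGGAA in 8, beside 21.6%, and TGANTCA in 0, beside 6.75%. A match describes the letters and does not show binding.

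Over all members at 24 h, 1 was past 2-fold higher (3.12%) and 3 lower (9.38%) with IgG, beside 20.6% and 10.5% of all genes. With anti-EZH2, 3 were higher (9.38%) and 8 lower (25.0%), beside 13.4% and 22.3% of all genes. The median log2 ratio was -0.12 with IgG, where that of all genes was 0.20, and -0.57 with anti-EZH2, where that of all genes was -0.08. By the series table the anti-EZH2 median was 0.12, and the counts were 4 higher and 0 lower with IgG and 3 and 3 with anti-EZH2. Members that also had intervals apart were Cdh5 with IgG, 1 of 32 beside 3.31% of all genes, and Cdh5 and Sox18 with anti-EZH2, 2 of 32 beside 3.62%.

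At 24 h the libraries of the antibodies went opposite ways for Cav1, the coat protein of caveolae, which had 13.1, 23.4 and 44.8 FPKM with IgG and 27.6, 28.2 and 12.4 FPKM with anti-EZH2. AngII 24 h was the highest of the IgG libraries (1.77) and the lowest of the anti-EZH2 libraries (-1.16). By the series table the value at 24 h was the highest with either antibody, 32.6 against 9.34 FPKM in Sham with IgG and 19.5 against 11.5 FPKM with anti-EZH2. Egfl7 was lower with IgG alone (14.6 to 5.79 FPKM, -1.32), and this turned to 0.77 in the series table. Ramp2 (8.11 to 2.14 FPKM, -1.87), Notch4 (-1.76), Esam, a tight junction adhesion molecule (-1.04), and Aplnr were lower with anti-EZH2 alone, and Sox17 (3.57), Vwf (1.75) and Ets1 (1.07) were higher. Of these 7, the series table put Sox17 past 2-fold higher with IgG as well (2.40) and Notch4 past 2-fold higher with IgG (1.05), and Esam was under 2-fold there (-0.44).

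By contrast, Fabp4, Gpihbp1 and Aqp1 were under 2-fold from Sham in all 4 comparisons. Fabp4 had 69.1, 70.6 and 63.3 FPKM with IgG and 54.4, 56.8 and 38.4 FPKM with anti-EZH2. Gpihbp1 had 15.9, 20.0 and 10.8 FPKM with IgG and 10.5, 17.9 and 5.57 FPKM with anti-EZH2, with AngII 4 h highest and AngII 24 h lowest under either antibody. In the series table AngII 24 h was highest instead, with 4.75, 4.78 and 7.71 FPKM with IgG and 4.69, 5.32 and 6.36 FPKM with anti-EZH2. Pecam1 had ratios between -0.07 and 0.62 except at 24 h with anti-EZH2 (-0.70). By the series table its ratios at 24 h were above 0, at 0.61 with IgG and 0.31 with anti-EZH2.

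Across the 32 members, the ratio at 4 h had the same sign in both antibodies for 22 (68.8%), with a Spearman's rho of 0.64 across genes, and for 58.1% of all genes, with a rho of 0.13. At 24 h it had the same sign for 19 members (59.4%), with a rho of 0.10, and for 52.1% of all genes, with a rho of 0.09. Genes are not independent replicates, the mice were shared, and these values describe the libraries only. The plot of the ratio in either antibody shows the members within all genes.

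**Figure D3:**
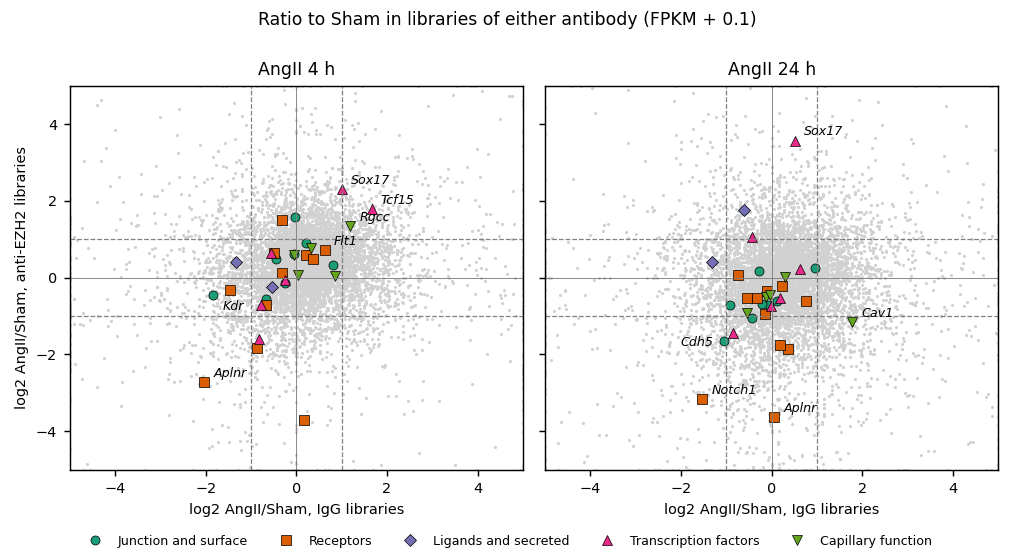
Log2 ratio of AngII to Sham in the IgG libraries (horizontal) against that in the anti-EZH2 libraries (vertical) at 4 h (left) and 24 h (right), for the 32 members (coloured by role) and all 8637 genes tested (grey, values past 5 drawn at the edge), with dashed lines at 2-fold. At 4 h Tcf15, Rgcc and Sox17 are at the upper right and Aplnr at the lower left, and at 24 h Cav1 lies at the right below 0.

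The second comparison asked which endothelial transcripts were precipitated with anti-EZH2 above IgG. In limma over the 3 groups, with group as a block, 0 of 32 members passed an adjusted p of 0.05, beside 0.0232% of all genes (2 of 8637). At an unadjusted p under 0.05 there were 2 members and 615 genes (7.12%). These members were Ly6a (log2 -0.95, SE 0.29, adjusted p = 0.671) and Tcf15 (log2 -1.12, SE 0.37, adjusted p = 0.671), both lower with anti-EZH2 in 3 of 3 groups. The median over the members was -0.34, and with 3 pairs an exact test of a single gene cannot go below p = 0.25. Neither member passed the correction, and the other members lay between -1.04 (Emcn) and 0.39 (Egfl7).

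In Sham, 2 members were past 2-fold higher with anti-EZH2 (6.25%) and 5 lower (15.6%), beside 14.0% and 18.6% of all genes. Notch4 (2.32 to 11.6 FPKM, 2.28) and Cav1 (1.07) were higher, and Vwf (7.48 to 1.77 FPKM, -2.02), Sox17 (-1.43), Ly6a (15.1 to 5.97 FPKM, -1.33), Emcn (-1.11) and Tcf15 (-1.03) were lower. None of the 7 had deposited intervals apart, beside 3.38% of all genes. The median was -0.32, where that of all genes was -0.22, and with that median subtracted 3 were higher and 3 lower. All members are protein-coding genes. Of the 6880 protein-coding genes tested, 693 were past 2-fold higher and 1378 lower in Sham, with a median of -0.31. By the series table the counts were 2 higher (Notch4, 2.60, and Aplnr, 1.29) and 1 lower (Vwf, -1.16). Cav1 (0.29), Sox17 (-0.63), Ly6a (-0.85) and Emcn (-0.96) were under 2-fold there, and Tcf15 missed the filter.

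At AngII 4 h, 2 were higher (Tek, 1.57 to 4.69 FPKM, and Mmrn2, 0.408 to 1.01 FPKM) and 1 was lower (Notch4, 2.60 to 0.806 FPKM), beside 12.2% and 11.8% of all genes. Mmrn2 alone had intervals apart, 1 of 32 beside 2.37% of all genes. The median was 0.00, where that of all genes was -0.07.

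At AngII 24 h, 2 were higher (6.25%) and 10 lower (31.2%), beside 8.57% and 32.7% of all genes. Sox17 (1.62) and Egfl7 (5.79 to 16.0 FPKM, 1.45) were higher. The lower members included Aplnr (-2.77), Ramp2 (-1.73), Ly6c1 (-1.60) and Notch1 (-1.24), and 3 of the 10 had intervals apart, Cav1 (-1.85), Emcn (6.68 to 1.81 FPKM, -1.83) and Aqp1 (15.5 to 7.59 FPKM, -1.02), beside 5.74% of all genes. The median was -0.82, where that of all genes was -0.58, and with that median subtracted 3 were higher and 6 lower. The anti-EZH2 library of this comparison is the one with 31.3% mitochondrial FPKM, and in the series table the median was -0.12, with 2 higher and 5 lower. The higher members there were Sox17 (2.30) and Vwf (1.07), and Egfl7 was under 2-fold (0.75). Cav1 (-0.74) and Aqp1 (-0.32) were under 2-fold as well, while Aplnr (-2.12), Emcn (-1.38), Ly6c1 (-1.11) and Ramp2 (-1.11) stayed past 2-fold lower. Across the 3 groups, 0 members were past 2-fold in 1 direction throughout, beside 1.26% of all genes higher and 1.13% lower.

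**Figure D4:**
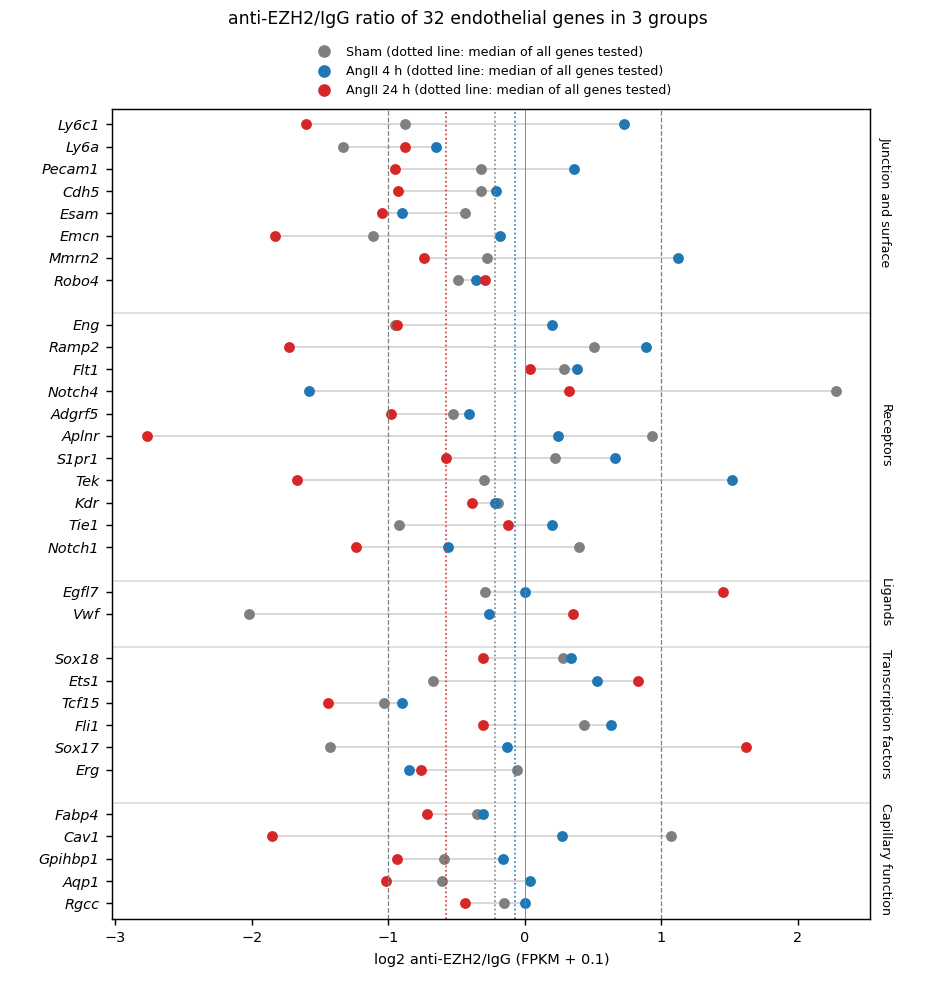
Log2 ratio of anti-EZH2 to IgG (horizontal) of the 32 members, ordered by role, with 1 point per group (grey, Sham; blue, AngII 4 h; red, AngII 24 h), dashed lines at 2-fold and dotted lines at the median of all genes in each group. The red points lie lowest for most members, and the red dotted line lies at -0.58.

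Other genes of these pathways were taken from a list of 58, of which 57 were found and 30 passed the filter. At 4 h, 0 of the 30 were past 2-fold higher and 4 lower with IgG, beside 17.9% and 11.5% of all genes, and 4 and 2 with anti-EZH2, beside 21.1% and 10.5%. At 24 h the counts were 4 higher and 5 lower with IgG, beside 20.6% and 10.5%, and 4 and 5 with anti-EZH2, beside 13.4% and 22.3%. The VEGF and semaphorin co-receptor Nrp2 was past 2-fold lower in all 4 comparisons, with 2.52, 0.712 and 0.906 FPKM with IgG and 1.59, 0.470 and 0.675 FPKM with anti-EZH2. The scavenger and fatty acid receptor Cd36 (86.1, 100.0 and 85.6 FPKM with IgG) and lipoprotein lipase, Lpl (173, 186 and 191 FPKM with IgG), were under 2-fold in these comparisons. Of the genes of endothelial activation, Sele (E-selectin) was at 0 in all libraries, Selp was above 0 in 1 library (0.243 FPKM), and Icam1 reached 0.560 FPKM at most. Vcam1 had 1.06, 0.757 and 3.83 FPKM with IgG and 0.643, 1.24 and 0.320 FPKM with anti-EZH2, so that the antibodies went opposite ways at 24 h. Nrp2, Vcam1 and Vegfa were named after their values were seen.

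Markers of other cells also differed between libraries. None of 8 cardiomyocyte markers was past 2-fold in any comparison, and their sum was 7020, 9599 and 8576 FPKM with IgG and 5418, 8566 and 5705 FPKM with anti-EZH2. Sums of 8 pericyte and smooth muscle markers were between 20.8 and 37.7 FPKM, those of 8 fibroblast markers between 101 and 131 FPKM, and those of 8 leukocyte markers between 18.1 and 33.3 FPKM. At 4 h with IgG, where the endothelial median was -0.26, the fibroblast collagens Col1a1 (-2.01) and Col3a1 (-1.47) and the proteoglycan gene Lum (-1.05) were past 2-fold lower. These were 3 of 7 fibroblast markers that passed the filter, beside 11.5% of all genes. The median over the 7 was -0.74, where that of all genes was 0.18. With anti-EZH2 at 4 h, 1 of the 7 was past 2-fold lower (Col3a1, -1.02), beside 10.5% of all genes, and the median was 0.15, where that of all genes was 0.34. At 24 h, 0 were higher and 1 lower with IgG (Col1a1, -1.39), beside 20.6% and 10.5% of all genes. With anti-EZH2, 1 was higher and 2 lower, beside 13.4% and 22.3%. The 3 leukocyte markers that passed the filter were below Sham at 4 h with either antibody, with medians of -0.61 and -0.82, and none was past 2-fold. Of 6 pericyte and smooth muscle markers, 1 was past 2-fold higher at 4 h and 1 lower at 24 h, both with anti-EZH2, beside 21.1% and 22.3% of all genes. Sums of 4 erythroid globin genes were 918, 624 and 1451 FPKM with IgG and 722, 583 and 806 FPKM with anti-EZH2. Pericyte and leukocyte sums were lowest in the anti-EZH2 library of AngII 24 h, as was the endothelial sum, and the part of cell composition in the values above was not tested.

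**Figure D5:**
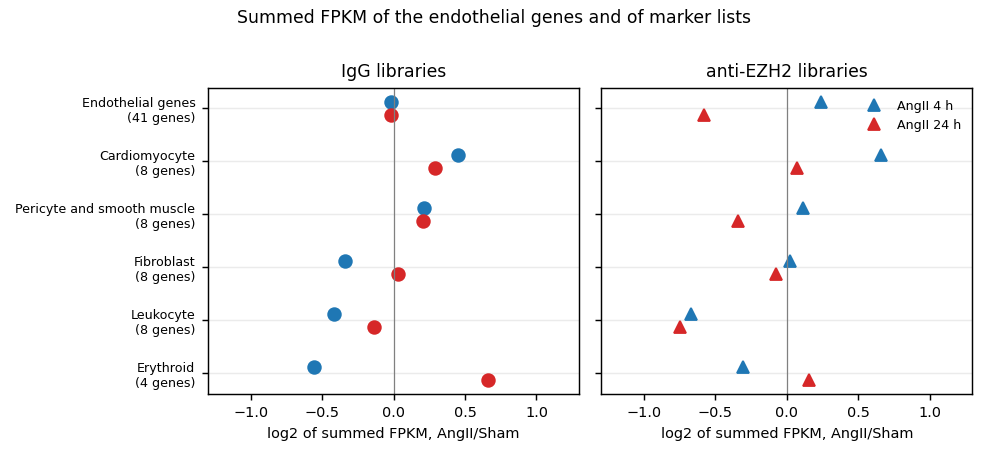
Log2 ratio of the summed FPKM of AngII 4 h (blue) and AngII 24 h (red) to Sham, for the 41 endothelial genes and for marker lists, in the IgG libraries (left) and the anti-EZH2 libraries (right). The endothelial sum is at about the Sham level in both IgG comparisons (272, 268 and 269 FPKM) and is 153 against 229 FPKM at 24 h with anti-EZH2. A sum weighs abundant genes most. The median log2 ratio of the 32 members tested with IgG was -0.26 at 4 h and -0.12 at 24 h, beside 0.18 and 0.20 of all genes.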

How the data were processed

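RIP-seq libraries of left ventricle were grouped by the labels (3 groups, IgG or anti-EZH2, 1 library each). Per the labels and methods, stranded reads were mapped to mm10 by TopHat2. The authors deposited FPKM both per library with an interval for each gene and jointly for the whole series; the program behind the FPKM and its annotation are not given in the sources used here. The separate tables were used. FPKM of identifiers listed more than once were summed, and 6.83% of values above 1 FPKM, none of a member, had no usable interval. A pseudocount of 0.1, a mean of at least 1 FPKM and a 2-fold limit were applied. Reads were inferred from genes with 1 transcript of 600 to 6000 nt (fragments of mean 200 nt, SD 80 nt); otherwise the depth behind a value is unknown.

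The anti-EZH2 contrast was fitted with limma on log2(FPKM + 0.1) with group as block, eBayes with trend and Benjamini-Hochberg adjustment over all genes tested. The pairing is that both libraries of a group were taken to come from its 2 mice. Procedures were tested on simulated data. The members, lists and settings were chosen with earlier results of these data known. Named in full were the 3 members of each role with the highest mean, members past 2-fold in the same direction in both antibodies, and any past 2-fold in all 3 anti-EZH2/IgG ratios; others were named after their values were seen. Tools were R 4.3.3 with limma 3.58.1, and Python 3.11.15 with matplotlib 3.10.9, scipy 1.17.1, pandas 2.3.3 and numpy 2.4.6. Alternatives were other pseudocounts and filters, the series table, subtraction of the median of all genes, intervals apart, a 1.5-fold limit, and fits without a pair, the block or the trend.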

Additional observations from a re-analysis of the deposited data

Results flagged for a closer look

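The results here were singled out because 2 groups or antibodies were past 2-fold in opposite directions. With 1 library each, none of these differences was tested. Cav1, the caveolin, had a log2 ratio of AngII 24 h to Sham of 1.77 with IgG and of -1.16 with anti-EZH2. From the same 4 libraries, its anti-EZH2/IgG log2 ratio was 1.07 in Sham and -1.85 at AngII 24 h, where the deposited intervals (23.5 to 66.2 FPKM with IgG, 6.96 to 22.4 FPKM with anti-EZH2) were apart. In Sham they overlapped. By the series table these ratios were 0.29 and -0.74, both under 2-fold, and the ratio of AngII 24 h to Sham was above 0 with either antibody, so that neither opposition was seen there.

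For the receptor gene Notch4 the anti-EZH2/IgG log2 ratio was 2.28 in Sham and -1.58 at AngII 4 h, with an interval of 0.560 to 22.8 FPKM behind the highest of these values. Sox17 had -1.43 in Sham and 1.62 at AngII 24 h, and Tek, the TIE2 receptor, had 1.52 at AngII 4 h and -1.67 at AngII 24 h. The deposited intervals of both antibodies overlapped in each of these ratios of Notch4, Sox17 and Tek. By the series table Notch4 (2.60 and -1.36) and Tek (1.57 and -1.81) kept both directions past 2-fold, while the ratio of Sox17 in Sham was under 2-fold there (-0.63) and with a pseudocount of 1 (-0.43).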

How the results depend on the processing

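Each count and median was recalculated under the alternatives, and 108 of these values stayed within 1.5-fold of the value given, while 44 moved. For single genes, 689 log2 ratios stayed on their side of 2-fold, 12 passed 2-fold and 24 no longer did. A change of sign was followed only for ratios past 2-fold. Among the 689, ratios under 2-fold could therefore turn, as that of Pecam1 at AngII 24 h with anti-EZH2 (-0.70, and 0.31 in the series table). Of the called ratios 3 turned, all in the series table: Cav1 at AngII 24 h with anti-EZH2 (0.76), Egfl7 at AngII 24 h with IgG (0.77) and Sox18 at AngII 24 h with anti-EZH2 (0.12).

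In the series table the median anti-EZH2/IgG log2 ratio at AngII 24 h was -0.12 and that of AngII 24 h to Sham with anti-EZH2 was 0.12. Members past 2-fold were 3 for anti-EZH2/IgG in Sham, 7 for it at AngII 24 h and 6 for AngII 24 h to Sham with anti-EZH2. In both antibodies, 0 were higher and 4 lower at 4 h (Cdh5, Kdr, Eng and Aplnr) and 1 higher and 0 lower at 24 h (Sox17). The cause was not tested. With a pseudocount of 1, 4 and 1 members were past 2-fold for anti-EZH2/IgG in Sham and at AngII 4 h, and 1 was lower at 24 h in both antibodies. With no filter the former were 11 and 7, since all 41 members were counted. At a mean of at least 5 FPKM, 12 members were counted. Of these, members past 2-fold were 2, 0 and 5 for anti-EZH2/IgG (Sham, then AngII 4 h, then AngII 24 h), 2 at 4 h with IgG, and 2 and 3 at 4 and 24 h with anti-EZH2. In both antibodies they were 1 higher and 0 lower at 4 h and 1 lower at 24 h. With the median of all genes subtracted, 1 was higher (Tcf15) and 2 lower (Aplnr and Notch1) at 4 h in both antibodies.

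With intervals apart, members past 2-fold were 0, 1 and 3 for anti-EZH2/IgG (Sham, then AngII 4 h, then AngII 24 h), 2 and 1 at 4 and 24 h with IgG, and 3 and 2 with anti-EZH2. In both antibodies 0 were higher and 0 lower at 4 h, and 1 was lower at 24 h (Cdh5). At 1.5-fold they were, in the same order, 14, 11 and 22, then 15 and 11, then 18 and 19, with 5 lower at 4 h and 4 lower at 24 h in both antibodies. The share of all genes was not calculated at 1.5-fold. Nor was it for the other filters and pseudocounts, the subtracted median or the series table. Counts under these settings, wherever given, therefore have no background beside them and are not a result about the members. In limma, 0 members passed the adjusted p of 0.05 under any alternative. Leaving out a pair gave medians between -0.53 and -0.18, and without the replicate block the count was 0 members and 4 genes, so that the block changed no call of a member.

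With 1 library per group and antibody, the spread between mice and between libraries is unknown, intervals of inferred reads cover counting error only, and what the deposited intervals cover is not given in the sources used here. Some members rest on few reads, as the 3 to 20 of Tcf15, and for members with more than 1 transcript the reads are unknown.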
